A study of Homo sapiens with 6 samples.

Results

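MHC class I molecules and the genes that load them with peptide were described here across 6 libraries of THP-1 cells, a human monocytic leukaemia line. The 9 genes are the heavy chains HLA-B, HLA-C, HLA-E and HLA-F, the light chain B2M, the peptide transporter subunits TAP1 and TAP2, the loading chaperone TAPBP (tapasin) and the transactivator NLRC5. They were chosen by name and matched by Ensembl identifier, and are 9 of 78686 rows of the deposited count table. After a filter on low counts 8 of the 9 were tested among 17624 genes, and HLA-F was not. By stable transduction the cells carried either an empty vector (EV, 3 libraries) or a PTX4 overexpression construct (PTX4-OE, 3 libraries), where PTX4 encodes the soluble pattern recognition protein pentraxin 4. Replicates are labelled biological, share the numbers 1 to 3 across the groups and carry 1 batch label. The labels do not say whether they came from separate transductions. The question was which transcripts PTX4 overexpression changes.

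Class I molecules show peptides from inside the cell to CD8 T cells and to receptors of natural killer cells. Proteasomes cut proteins into peptides, TAP1 and TAP2 carry them into the endoplasmic reticulum, and tapasin holds empty heavy chain with B2M next to the transporter until a peptide fits. NLRC5 raises transcription of class I genes through the promoter elements that they share, and interferon gamma raises the whole set, including NLRC5.

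PTX4 itself had at most 4 expected counts in an EV library and at least 14398 in a PTX4-OE library. Library totals ran from 29670641 to 37718207 expected counts. The mitochondrial share was lowest in PTX4-OE replicate 1, at 2.79%, against 4.75% to 5.91% elsewhere. All 10 monocyte markers were tested, with a summed TPM of 627 to 689 in EV and 597 to 708 in PTX4-OE. The T cell genes CD3D, CD3E, CD3G and CD2, the B cell gene MS4A1 and the epithelial gene EPCAM had 0 counts in all 6 libraries. Of 7 T and NK cell markers only NKG7 was tested, and the summed TPM of the list was 25.3 to 27.1 in EV and 18.9 to 24.3 in PTX4-OE. The 5 B cell markers summed to 3.21 to 4.68 and 4.58 to 5.2 TPM, and the 7 epithelial, stromal and endothelial ones to 1.25 to 2.23 and 1.58 to 2.27. The part of these markers in the members' differences was not tested. With edgeR's quasi-likelihood test, without a block, 1 gene passed a Benjamini-Hochberg adjusted p of 0.05 (0.00567% of those tested), and it was PTX4. With the replicate number as a block 46 genes passed (0.261%), of which 41 were lower (0.233%) and 5 higher (0.0284%). The lower ones included 2 of the 10 listed monocyte markers, which the summed TPM does not show. These were MPO (log2 fold change -0.54, edgeR adjusted p = 0.00804) and CSF1R (-0.30, edgeR adjusted p = 0.0387).

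The promoters of the class I genes are shown first, because those of HLA-B, HLA-C, HLA-F and B2M hold a Y box that those of TAP1 and TAP2 lack and because HLA-F, which was not detected, can be set beside HLA-B. RefSeq windows on GRCh38.p14, from 250 bases before the transcription start to 50 after it, were at hand for 7 of the 9 members. Those of HLA-B, HLA-C, HLA-F, B2M, TAP1 and TAP2 are printed 5′ to 3′ on the strand of the gene. That of TAPBP is described but not printed. Capitals mark every match, on either strand, to the searched motifs. These were the interferon-stimulated response element GAAANNGAAA, a form 1 base shorter, GAANNGAAA, the X2 box core TGACGC bound by CREB and ATF1, the Y box CCAATCAG bound by NF-Y, and the NF-kB consensus. Matches that overlap share their capitals. HLA-B lies on the minus strand at chr6:31357130-31357429, HLA-C on the minus strand at chr6:31272043-31272342, HLA-F on the plus strand at chr6:29723184-29723483 and B2M on the plus strand at chr15:44711267-44711566. TAP1 and TAP2 lie on the minus strand at chr6:32853655-32853954 and chr6:32838690-32838989, and the TAP1 window is the upstream one of its 2 listed starts.
HLA-B: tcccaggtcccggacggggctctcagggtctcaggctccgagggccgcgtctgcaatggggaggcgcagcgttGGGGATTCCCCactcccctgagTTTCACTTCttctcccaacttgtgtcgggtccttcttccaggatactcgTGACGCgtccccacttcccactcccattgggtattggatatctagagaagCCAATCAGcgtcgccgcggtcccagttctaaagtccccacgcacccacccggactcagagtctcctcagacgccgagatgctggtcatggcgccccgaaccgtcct
HLA-C: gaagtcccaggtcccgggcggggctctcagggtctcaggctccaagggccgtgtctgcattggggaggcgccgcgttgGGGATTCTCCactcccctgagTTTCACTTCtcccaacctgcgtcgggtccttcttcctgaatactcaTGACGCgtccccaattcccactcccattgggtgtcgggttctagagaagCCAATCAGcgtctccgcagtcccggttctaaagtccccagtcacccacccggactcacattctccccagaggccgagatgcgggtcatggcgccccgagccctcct
HLA-F: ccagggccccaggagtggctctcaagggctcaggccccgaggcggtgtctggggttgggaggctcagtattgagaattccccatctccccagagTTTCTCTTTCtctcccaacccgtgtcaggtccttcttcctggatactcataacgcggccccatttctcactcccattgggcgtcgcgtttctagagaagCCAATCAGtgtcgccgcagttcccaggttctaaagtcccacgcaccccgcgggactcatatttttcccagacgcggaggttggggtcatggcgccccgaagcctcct
B2M: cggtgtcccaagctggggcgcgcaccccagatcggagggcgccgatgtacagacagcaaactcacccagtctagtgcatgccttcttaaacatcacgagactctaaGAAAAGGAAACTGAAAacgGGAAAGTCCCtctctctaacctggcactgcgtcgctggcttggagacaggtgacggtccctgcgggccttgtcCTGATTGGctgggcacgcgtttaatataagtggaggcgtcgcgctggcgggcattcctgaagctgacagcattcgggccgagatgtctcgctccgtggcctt
TAP1: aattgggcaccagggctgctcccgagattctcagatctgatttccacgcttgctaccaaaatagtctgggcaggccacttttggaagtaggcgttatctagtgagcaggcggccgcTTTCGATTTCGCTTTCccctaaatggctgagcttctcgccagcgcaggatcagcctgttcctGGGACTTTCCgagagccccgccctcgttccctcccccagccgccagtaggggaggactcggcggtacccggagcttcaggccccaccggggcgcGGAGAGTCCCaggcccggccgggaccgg
TAP2: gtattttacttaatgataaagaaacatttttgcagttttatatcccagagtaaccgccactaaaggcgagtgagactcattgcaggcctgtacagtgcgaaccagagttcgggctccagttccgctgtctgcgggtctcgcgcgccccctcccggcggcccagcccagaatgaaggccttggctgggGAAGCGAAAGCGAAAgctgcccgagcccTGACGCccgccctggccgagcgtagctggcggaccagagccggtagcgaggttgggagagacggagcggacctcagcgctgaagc

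The HLA-B and HLA-C windows hold the same 4 kinds of element in the same order: NF-kB, the shorter interferon element, the X2 core and the Y box. The NF-kB site of HLA-B has 4 overlapping matches over both strands, and that of HLA-C has 1. With the start base counted as 0, the Y box begins at -56 in both, and the X2 core at -106 in HLA-B and -105 in HLA-C. The HLA-F window holds the Y box at -57 and the longer interferon element at -156, and no match to the X2 core or the NF-kB consensus. B2M has the Y box on the other strand, from -52 to -45, with 2 overlapping interferon elements and 1 NF-kB match. TAP1 holds 2 overlapping interferon elements and 2 NF-kB matches, and TAP2 holds both forms of the interferon element and the X2 core. TAPBP, at chr6:33314029-33314328 on the minus strand, holds 2 overlapping interferon elements and 1 NF-kB match. Neither the TAP1, TAP2 nor TAPBP window has the Y box. Of the 35116 promoter windows, 3.57% hold the longer interferon element, 7.66% the shorter one, 9.14% the X2 core, 3.97% the Y box and 11.3% the NF-kB consensus. Among the 7 members with a window these were found in 5, 3, 3, 4 and 5. The motifs were chosen with these promoter letters in view, so the counts are descriptions and no test against those shares. A match is a description of the letters and no evidence of binding in these cells.

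Levels between genes are compared in deposited TPM, which is scaled for gene length. B2M was the most abundant member, at 1548, 1363 and 1075 TPM across the EV libraries, in order of number, and 1400, 1259 and 1142 across the PTX4-OE ones. It ranked 108 to 127 among all genes. HLA-B, a classical heavy chain that presents peptides to CD8 T cells, followed at 525 ± 34.1 TPM in EV and 469 ± 39.9 in PTX4-OE (SD, n = 3 each), ranking 184 to 290. No library of B2M overlapped with one of HLA-B.

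The other classical chain, HLA-C, which is also the main ligand of killer immunoglobulin-like receptors, stood at 113 ± 12.4 and 109 ± 11.8 TPM (SD, n = 3 each). HLA-E, which shows leader peptides of other class I chains to CD94 and NKG2 receptors, was at 108 ± 12.1 and 103 ± 16.2. TAPBP was at 90.6 ± 7.35 and 92.9 ± 6.16, TAP2 at 68.4 ± 17.4 and 75 ± 19.9, and TAP1 at 67.4 ± 10.5 and 69.8 ± 10.7. From HLA-C down to TAP1, libraries of neighbours in this order overlapped within both groups, except that in EV all HLA-E libraries (100 to 122 TPM) were above all TAPBP libraries (83.1 to 97.8). NLRC5 was lower, at 10.5 ± 0.946 and 9.78 ± 0.415 TPM, and no library of it reached that of any other tested member.

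HLA-F (ENSG00000204642.14, chromosome 6, 29722775 to 29738528, plus strand, GRCh38, protein coding) had 1 count in PTX4-OE replicate 1 and 0 in the other 5 libraries. A count of 0 allows up to 3 counts, or 0.0795 to 0.1011 CPM (counts scaled to library size), for counting error only. The gene overlaps its antisense transcript HLA-F-AS1 (29726601 to 29749049, minus strand), named after its values were seen, which had 34 to 98.83 expected counts. No source used here says whether counting used strand, so reads of the overlap cannot be told apart. HLA-G, the class I gene of the placenta, was likewise at 1 count in EV replicate 1 and 0 elsewhere.

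**Figure D1:**
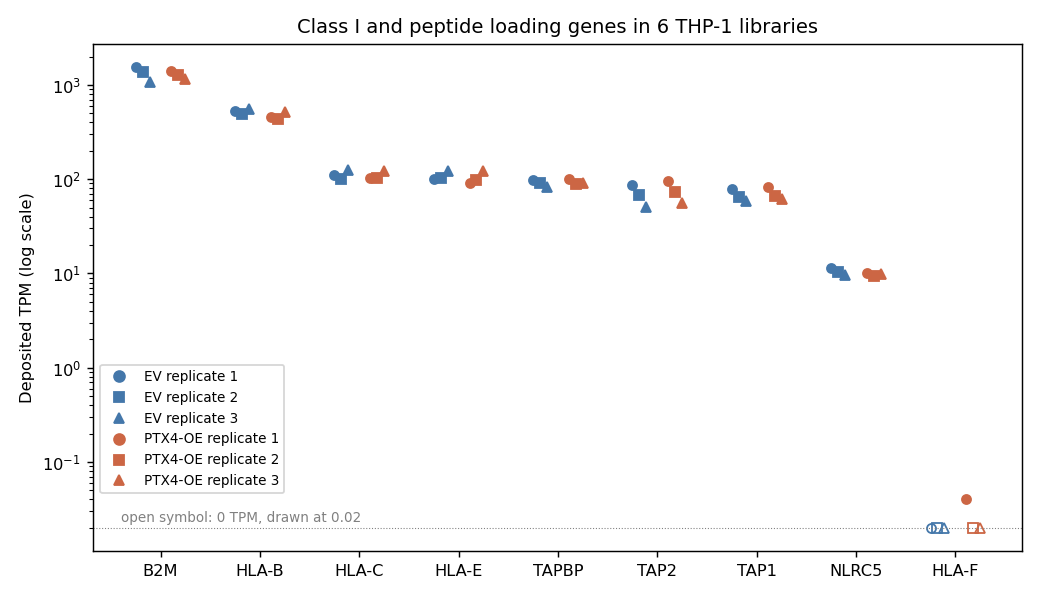
Deposited TPM of the 9 genes (log axis) in the 3 EV and 3 PTX4-OE libraries, 1 symbol per library with a shape for each replicate number. B2M lies between 1075 and 1548 TPM and HLA-B between 435 and 556, NLRC5 lies between 9.36 and 11.4, and HLA-F is at 0 in all but 1 library.

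Between PTX4-OE and EV no member passed the test in either fit, and the differences that were measured were small. In normalised CPM, HLA-B was the 1 member with every PTX4-OE library below every EV library, whereas in deposited TPM its groups overlapped. All 3 tested heavy chains were lower in PTX4-OE in each of the 3 like-numbered pairs in normalised CPM, while TAP1, TAP2 and TAPBP were centred close to no difference. Of the 8 tested members 6 had a negative log2 fold change, against 47% of all genes tested (6 of 8 and 48.1% with the block). The median of the 8 was -0.088 without a block and -0.082 with it, beside 0.0077 and 0.0053 over all genes tested. Without EV replicate 1 the members' median was -0.012.

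HLA-B (ENSG00000234745.14, chromosome 6, 31353872 to 31367067, minus strand, protein coding) was at 534, 495 and 533 normalised CPM in the EV libraries, in order of number, and at 455, 431 and 475 in the PTX4-OE libraries. In CPM the groups did not overlap, which held downward for 2.04% of all genes tested and for 1 of the 8 members (4.12% of genes in either direction). In TPM they did overlap, at 530, 489 and 556 in EV and 458, 435 and 513 in PTX4-OE, since PTX4-OE replicate 3 was above EV replicate 2. The log2 differences of the pairs were -0.23, -0.20 and -0.16. The fitted log2 fold change was -0.20 (SE 0.092, 95% interval -0.41 to 0.019, edgeR adjusted p = 1.00). With the replicate block it was -0.20 (SE 0.051, 95% interval -0.31 to -0.09), with an unadjusted p of 0.00137 and an edgeR adjusted p of 0.164. In bulk RNA, fewer cells with the transcript and less of it per cell cannot be told apart.

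HLA-C (ENSG00000204525.18, chromosome 6, 31268749 to 31272130, minus strand, protein coding) was at 112, 102 and 120 CPM in EV and 102, 101 and 114 in PTX4-OE. Its groups overlapped, and its pairs differed by -0.14, -0.018 and -0.084 on the log2 scale. The log2 fold change of HLA-C was -0.082 (95% interval -0.33 to 0.17) without a block and -0.081 (-0.18 to 0.021) with it. HLA-E (ENSG00000204592.9, chromosome 6, 30489509 to 30494194, plus strand, protein coding) was at 181, 186 and 209 CPM in EV and 163, 172 and 203 in PTX4-OE. Both groups were highest in replicate 3 and they overlapped. The pairs of HLA-E differed by -0.15, -0.11 and -0.044, and the log2 fold change was -0.1 (SE 0.12, edgeR adjusted p = 1.00). With the block it was -0.10 (SE 0.048, edgeR adjusted p = 0.567). In CPM, being lower in all 3 pairs held for 3 of the 8 members, HLA-B, HLA-C and HLA-E, and for 14.1% of all genes tested. The same 3 were the members that kept 1 direction in all pairs, as did 30.5% of genes. In TPM the pair of replicate 2 turned for HLA-C (101 in EV and 102 in PTX4-OE), and the pair of replicate 3 was at 122 in both groups for HLA-E.

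Expected counts of HLA-B and HLA-C were not whole numbers, and those of HLA-E were whole in every library. How the fractions arose is not stated in the labels, and whether reads were shared between heavy chains was not tested. The ratio of HLA-B to HLA-C in TPM was 4.66 ± 0.219 in EV and 4.29 ± 0.147 in PTX4-OE (SD, n = 3 each), with overlapping libraries. The summed TPM of HLA-B, HLA-C and HLA-E was 742, 692 and 805 in EV and 652, 634 and 757 in PTX4-OE, in order of number. It was lower in PTX4-OE for each replicate number, but the groups overlapped.

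B2M (ENSG00000166710.23, chromosome 15, 44711358 to 44718851, plus strand, protein coding) was at 813, 711 and 540 CPM in EV and 727, 653 and 553 in PTX4-OE. Replicate 1 was the highest and replicate 3 the lowest of both groups, so the groups overlapped. Its log2 fold change was -0.094 (SE 0.18, 95% interval -0.51 to 0.32), with pair differences of -0.16, -0.12 and 0.035. Per library B2M was 1.34 to 2.15 times the summed TPM of the 3 detected heavy chains, and this ratio was 1.8 ± 0.403 in EV and 1.88 ± 0.332 in PTX4-OE (SD, n = 3 each).

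TAP1 (ENSG00000168394.13, chromosome 6, 32845209 to 32853816, minus strand, protein coding) was at 139, 115 and 94.7 CPM in EV and 143, 112 and 98.1 in PTX4-OE. TAP2 (ENSG00000204267.19, chromosome 6, 32821833 to 32838739, minus strand, protein coding) was at 264, 233 and 169 CPM in EV and 288, 226 and 180 in PTX4-OE. Both subunits were highest in replicate 1 and lowest in replicate 3 of either group. The log2 fold change was 0.019 for TAP1 (95% interval -0.43 to 0.46 without a block and -0.083 to 0.12 with it). For TAP2 it was 0.061 (-0.46 to 0.58 without a block) or 0.059 with it (-0.049 to 0.17). By the annotation TAP1 lies inside the span of PSMB9 on the other strand. The counts of TAP1, TAP2 and TAPBP were not whole, and whether reads were shared with overlapping genes was not tested. TAPBP (ENSG00000231925.14, chromosome 6, 33299694 to 33314284, minus strand, protein coding) was at 235, 223 and 187 CPM in EV and 236, 210 and 197 in PTX4-OE. Its log2 fold change was -0.0073 (95% interval -0.30 to 0.29), or -0.0043 (-0.11 to 0.10) with the block, and 0.036 on log2(TPM + 1), so its direction is not set.

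NLRC5 (ENSG00000140853.17, chromosome 16, 56989485 to 57083531, plus strand, protein coding) was at 58.7, 53.8 and 46.1 CPM in EV and 51.7, 47.1 and 46.2 in PTX4-OE. The pairs of replicates 1 and 2 differed by -0.18 and -0.19 and that of replicate 3 by 0.002. NLRC5 had a log2 fold change of -0.13 (SE 0.12, edgeR adjusted p = 1.00), or -0.12 with the block (SE 0.057, edgeR adjusted p = 0.555). With the block HLA-B, HLA-E and NLRC5 had an unadjusted p under 0.05 and were lower, which held for 4.43% of all genes tested (8.79% in either direction). Without it 0 of the 8 members had an unadjusted p under 0.05, against 0.743% of genes tested and 0.505% in the lower direction.

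**Figure D2:**
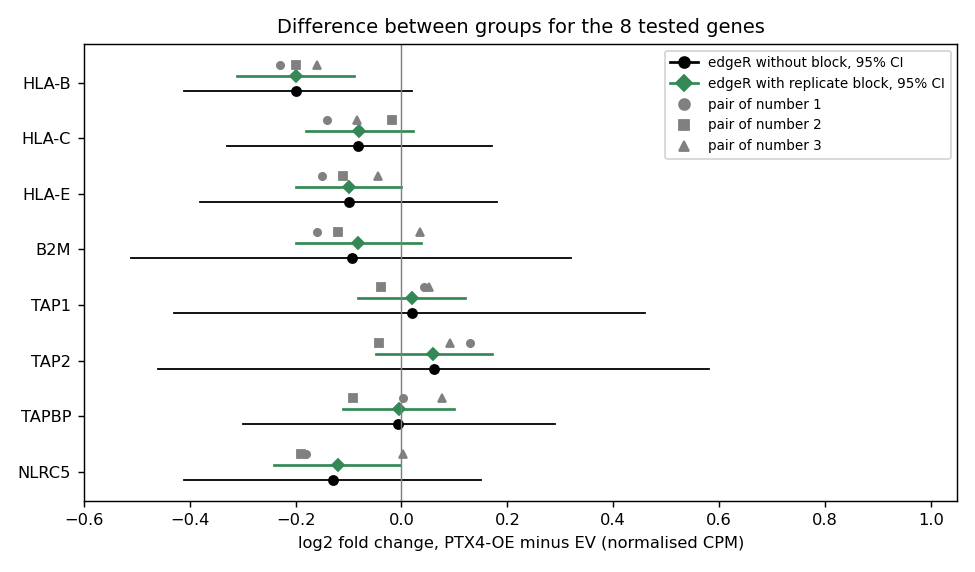
log2 fold change of PTX4-OE over EV for the 8 tested genes, with 95% confidence intervals from edgeR without a block (black) and with the replicate number as a block (green), and the difference of each like-numbered pair (grey). The block narrows the intervals of TAP1 and TAP2 most, and the 3 pairs of HLA-B lie at -0.23, -0.20 and -0.16.

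The replicate number moved most members more than the construct did. In EV, TAP2 was 1.56 times as high in replicate 1 as in replicate 3, and in PTX4-OE 1.6 times. For TAP1 these ratios were 1.47 and 1.46, and for B2M 1.51 and 1.31. TAPBP (1.25 and 1.19) and NLRC5 (1.27 and 1.12) lay the same way in both groups, while HLA-C (0.93 and 0.90) and HLA-E (0.87 and 0.80) were higher in replicate 3. HLA-B differed little by number (1.00 and 0.96). The labels do not say what a number shares, and with 1 library per group and number these ratios are descriptions. B2M, TAP1 and TAP2 were the 3 of 8 members lower in replicate 3 by over 0.3 on the log2 scale in both groups, against 20.1% of all genes tested. No member was higher by that much in both groups, against 25% of genes. Counted at any size, 5 members were lower in replicate 3 in both groups (40.8% of genes) and 2 were higher (43.3%).

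Interferon-induced genes lay the same way, with a median log2 difference of replicate 3 from replicate 1 of -1.75 in EV and -1.0 in PTX4-OE over the 21 tested. Their summed TPM was 1019, 740 and 301 in EV and 779, 660 and 413 in PTX4-OE, in order of number. The corresponding medians over all genes tested were 0.015 and 0.019. The part of the interferon-induced genes in the differences of B2M, TAP1, TAP2 and NLRC5 was not tested. The immunoproteasome list (median -0.58 in EV and -0.54 in PTX4-OE) and the constitutive catalytic subunits (-0.73 and -0.88) were lower in replicate 3 as well.

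**Figure D3:**
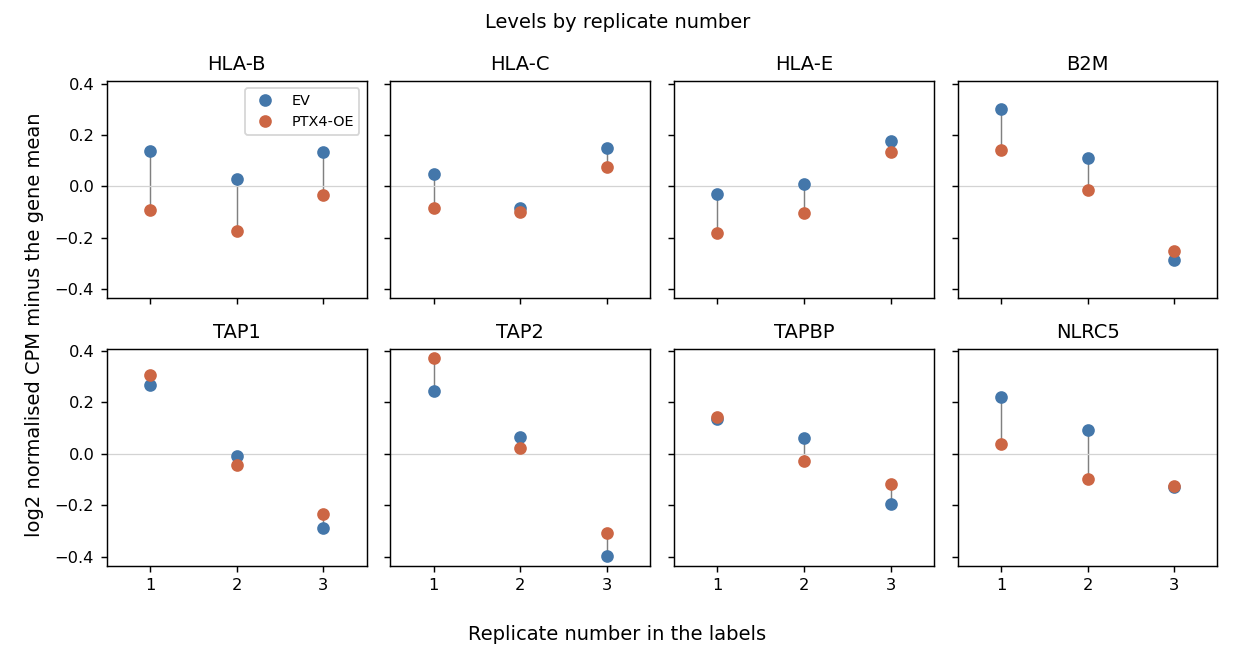
log2 normalised CPM of the 8 tested genes relative to each gene's mean, by replicate number, with EV in blue, PTX4-OE in orange and a grey line joining libraries of the same number. TAP1, TAP2 and B2M are highest in replicate 1 and lowest in replicate 3 of both groups, whereas the 3 EV points of HLA-B lie above the 3 PTX4-OE points.

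Other genes of the pathway were read from lists chosen by function, and 0 genes of these lists passed the test over all genes in either fit. Of 6 peptide loading partners 3 had a negative and 3 a positive log2 fold change, with a median of 0.00051. For this and the following lists, the share of negative values over all genes tested was 47%. CALR (calreticulin), which holds the glycan of the heavy chain, was the most abundant at 473 ± 112 TPM in EV and 485 ± 136 in PTX4-OE (SD, n = 3 each). ERAP1, the aminopeptidase that trims peptides in the endoplasmic reticulum, was at 0.089 (SE 0.11), and its relative ERAP2 at -0.12 (SE 0.21). CANX (calnexin), the chaperone that folds new heavy chains, was at 0.048 (SE 0.089).

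All 5 genes of the immunoproteasome and its activator were tested, 4 with a positive and 1 with a negative log2 fold change and a median of 0.034. PSME2 and PSME1, the subunits of the activator PA28, were at 0.042 (SE 0.33) and 0.043 (SE 0.21), and PSMB8, a catalytic subunit of the immunoproteasome, at -0.034 (SE 0.19). PSMB5, PSMB6 and PSMB7, the catalytic subunits of the constitutive proteasome, were at 0.085, 0.068 and 0.058. In TPM PSMB8 was 2.02 ± 0.203 times PSMB5, its constitutive counterpart, in EV and 1.88 ± 0.222 times in PTX4-OE (SD, n = 3 each). PSMB9 was 1.36 ± 0.111 and 1.37 ± 0.323 times PSMB6, and PSMB10 was 1.09 ± 0.121 and 1.08 ± 0.141 times PSMB7. All 3 ratios overlapped between the groups.

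Factors that act on class I promoters were described in 3 lists. Of 8 genes for the RFX, NF-Y and CREB factors that bind the X and Y boxes with NLRC5, 5 were positive and 3 negative, with a median of 0.022. NFYC, a subunit of NF-Y and the most abundant of them, was at 0.11 (SE 0.14), NFYA at 0.048 (SE 0.16) and RFXAP at -0.12 (SE 0.15). Of 10 genes from the interferon gamma receptor to its factors, 6 were negative and 4 positive, with a median of -0.011. IRF1, which drives NLRC5 and class I transcription, was at 0.10 (SE 0.10), the myeloid factor IRF8 at -0.077 (SE 0.20), and IRF9 at 0.18 (SE 0.14), with 32.7, 26.4 and 21.8 TPM in EV and 32.9, 31 and 31.3 in PTX4-OE. IRF9 thus differed mainly in replicates 2 and 3. The 5 NF-kB subunits had a median of 0.059, with NFKB1 at 0.11 (SE 0.15), NFKB2 at 0.081 (SE 0.23), RELA at 0.059 (SE 0.11) and REL at -0.072 (SE 0.16).

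Class I-like genes and ligands of the natural killer receptor NKG2D gave 7 tested of 10, with a median of -0.022 and 4 negative. Among them ULBP2 was the most abundant at 25.7 ± 0.868 TPM in EV and 26.3 ± 0.963 in PTX4-OE (SD, n = 3 each). MICB, another NKG2D ligand, was at 0.11 (SE 0.15), MR1, which presents vitamin B metabolites, at -0.042 (SE 0.15), and CD1D, which presents lipids, at -0.26 (SE 0.24). Of the 9 listed genes with a row from families of class I receptors, 4 were tested. Among them LILRB4 was at 0.044 (SE 0.16), LILRA1 at -0.17 (SE 0.15) and LILRB2 at -0.60 (SE 0.48). A place on this list is no evidence that a gene's product binds class I. LILRB2 was low, at 0.393 ± 0.0833 TPM in EV and 0.31 ± 0.181 in PTX4-OE (SD, n = 3 each). Its pairs differed by -0.39, -1.78 and 0.097 on the log2 scale.

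The 21 tested interferon-induced genes had a median of -0.083, with 14 negative and 7 positive. GBP5, a guanylate-binding protein, was at -0.66 (SE 0.60), IFIT2 at -0.18 (SE 0.40), IFI27 at -0.49 (SE 0.62) and IRF7 at 0.20 (SE 0.20). The level of GBP5 was low, at 0.62 ± 0.364 TPM in EV and 0.4 ± 0.197 in PTX4-OE (SD, n = 3 each). With the block and a pair left out, edgeR called IFI27 without replicate 3 (-0.70, adjusted p = 5.1e-18) and IRF7 without replicate 1 (0.40, adjusted p = 0.0131). Neither passed with all pairs (adjusted p = 0.652 and 0.415). Each fit with a pair left out rests on few libraries. The pairs of IFI27 differed by -0.89, -0.48 and 0.74, so its small p without replicate 3 is no measure of that spread. Over the 21 genes the pair medians were -0.20, -0.056 and 0.24 for numbers 1 to 3. Those of the 8 class I members were -0.15, -0.10 and 0.019. In the class II list, 8 of 13 genes were tested, and all 8 were negative (47% over all genes tested) with a median of -0.33. HLA-DRB1, HLA-DRB5, HLA-DQB1 and the invariant chain CD74 were at -0.33, -0.36, -0.68 and -0.11 there.

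Most members lie in the MHC region of chromosome 6. Between the start of HLA-F and the end of TAPBP, the other 130 tested genes had a median log2 fold change of -0.029. Of these 79 were negative and 51 positive, against 47% negative over all genes tested. With the block 3 of them passed, all lower (AIF1, LST1 and TNF, named after their values were seen), and 0 passed without it. Over all genes tested 0.233% passed as lower with the block.

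**Figure D4:**
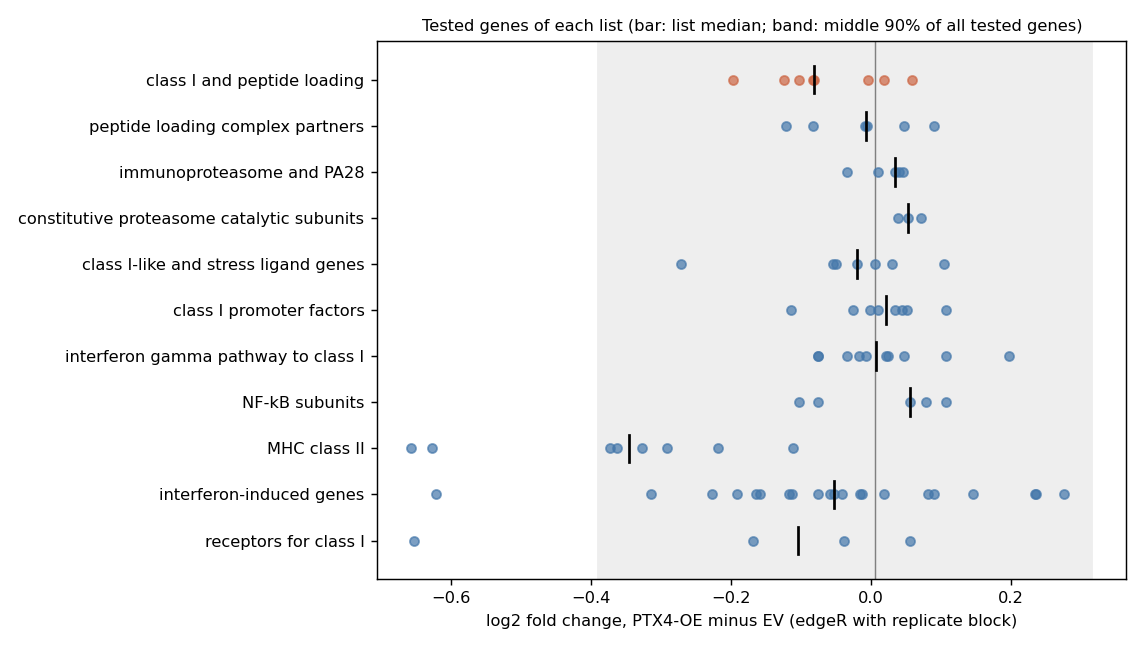
log2 fold change with the replicate block for each tested gene of the pathway lists (1 point per gene, black bar for the list median), with the middle 90% of all genes tested shaded. The 8 class I and loading genes (median -0.082) lie within the shaded range, and the class II list has the lowest median.

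Among the 5 genes whose levels over the 6 libraries were most like the mean standardised profile of the 8 tested members were KANK1 and C3orf38 (Pearson r = 0.985 each), BLOC1S4 (0.982) and FKBP14 (0.978). They were picked as the highest of all other genes tested, so such values are a description of rank. The members themselves matched their mean unequally, from 0.96 for NLRC5 and 0.83 for B2M down to 0.54 for HLA-B, -0.014 for HLA-C and -0.30 for HLA-E.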

How the data were processed

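Poly(A)-selected RNA of THP-1 cells was sequenced. Per the submitters' processing notes, reads were checked with FastQC 0.11.5, aligned with STAR to GRCh38 and counted with featureCounts, while settings, strand and annotation release are not stated there. The authors deposited expected counts (not normalised, 7.939% not whole) and TPM scaled to a sum of 1000000 per library. Names and coordinates came from GENCODE release 44, in whose terms 38 pseudoautosomal copies were summed.

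Expected counts were rounded and tested in R 4.3.3 with edgeR 4.0.16 (filterByExpr, TMM, quasi-likelihood F test, Benjamini-Hochberg over 17624 genes). CPM values carry the TMM factors, and pair differences use log2 CPM with a prior count of 2. Standard errors come from the fold change and F statistic. The code was tested on simulated data. The replicate numbers were taken to pair the libraries by a limit of 0.1 on the correlation of deviations from group means. For numbers 1, 2 and 3 it was 0.632, 0.13 and 0.699. Unlike numbers ranged from -0.643 to 0.117, the highest of which also passed 0.1 and was close to the value of number 2. The check thus does not set number 2 apart. Deviations within a group depend on each other, so these correlations are not independent. Numbers come from the labels. DESeq2 1.42.0, limma 3.58.1 on log2(TPM + 1), RLE scaling, no filter, whole-number truncation and left-out libraries were alternatives.

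Named pathway genes were, per list, those that passed in either fit, the 3 of smallest p with the block and the most abundant. One gene that the rule on likeness picked is not reported here. Members and lists were chosen with earlier results of these data known, and motifs with the promoter letters in view. The depth of 29670641 to 37718207 counts per library sets counting precision. P-values set the difference between the groups against the spread between these replicates. With the block they set it against the spread left after the replicate number is fitted. In edgeR this spread is estimated with information shared across genes, so it is not a gene's own spread alone. The SD of the pair differences was 0.032 for HLA-B and 0.11 for NLRC5, while their SE with the block was 0.051 and 0.057.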

Additional observations from a re-analysis of the deposited data

How the results depend on the processing

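Under 17 alternatives 0 of the tested members passed, and the members' log2 fold changes reversed in 13 of 136 values. Those of HLA-B, HLA-C, HLA-E and NLRC5 stayed negative in all 17. The smallest adjusted p was 0.0802 for HLA-B, with the block and without replicate 3, and its highest was 1. The count over all genes, 1 without a block, became 46 with the replicate block in edgeR but stayed at 1 in limma on log2(TPM + 1) with the same block, and was 3 with DESeq2, 2 with no filter and 3 on log2(TPM + 0.1), and with single libraries left out it was 1 each time, and with the block and a pair left out it was 89, 23 and 208 (replicates 1, 2 and 3). In edgeR the block changed no member's call, but did change those of AIF1, LST1, TNF and the monocyte markers MPO (-0.54, adjusted p = 0.00804) and CSF1R (-0.30, adjusted p = 0.0387). MPO and CSF1R did not pass with the block in limma (adjusted p = 0.442 each) or without replicate 2 (0.108 and 0.278). The median of the members ran from -0.13 to -0.012 with single libraries left out, the former without PTX4-OE replicate 1 and the latter without EV replicate 1. TAPBP was at 0.036 on log2(TPM + 1) with and without the block and on log2(TPM + 0.1), and CALR was at -0.0066 with the block. With single libraries left out, signs turned for members (B2M from -0.24 to 0.033, TAPBP from -0.098 to 0.051, TAP1 from -0.14 to 0.16, TAP2 from -0.12 to 0.20) and for other genes (IFIT2 from -0.55 to 0.085, IRF8 from -0.22 to 0.067, LILRB4 from -0.057 to 0.22, PSMB8 from -0.17 to 0.1, ULBP2 from -0.027 to 0.028, CALR from -0.22 to 0.21, NFKB2 from -0.11 to 0.25, NFYA from -0.061 to 0.17, PSMB5 from -0.12 to 0.28, PSMB6 from -0.25 to 0.31, PSMB7 from -0.15 to 0.24, PSME1 from -0.11 to 0.20, PSME2 from -0.20 to 0.27, REL from -0.22 to 0.056, ERAP2 from -0.26 to 0.042, MR1 from -0.17 to 0.091, NFKB1 from -0.011 to 0.19, NFYC from -0.011 to 0.18, RELA from -0.029 to 0.10). With the block and a pair left out they turned for CALR (-0.07), IFI27 (0.011), MR1 (0.027), PSMB6 (-0.063), RELA (-0.013), ULBP2 (-0.05), TAPBP (0.041), TAP1 (-0.0098), CALR (-0.0062). No adjusted p was under 0.734 where a sign turned by leaving out libraries. Why they turned was not tested. With 3 replicates a group and no block, members' 95% intervals reached from -0.51 (B2M) to 0.58 (TAP2) on the log2 scale. Differences within a gene's own interval could not be told from the fitted one. The intervals are no limit of detection, since a call needed an adjusted p under 0.05 over 17624 genes.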
